A study of Sus scrofa with 27 samples.

Results

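The insulin-like growth factor (IGF) binding protein family was examined in the mural granulosa cells (GCs) of sows that had been full-fed (FF) or feed-restricted (RES) during lactation. The family was taken as the 7 genes IGFBP1 to IGFBP7, and 6 of them could be matched by gene symbol to a pig Ensembl identifier in the count files, out of 35670 identifiers in all. IGFBP3 had no identifier in the symbol table and was not analysed here. Of the 6 members, 4 (IGFBP2, IGFBP4, IGFBP5 and IGFBP7) had 5 or more counts on average across the 27 libraries and entered the test, as did 17467 identifiers in all.

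FF sows received 6.5 kg of feed per day and RES sows 3.25 kg per day in the last 2 weeks of lactation, and ovaries were collected on day 2 after weaning. All were wild-type Large White × Norwegian Landrace sows in their first parity. For the days between weaning and collection, the labels call all sows fully fed, while the study's methods give both groups the same daily ration, which was below either lactation ration. GCs were cut by laser capture from 1 follicle per sow, the largest one judged healthy in the right ovary, and each sow gave 1 RNA-seq library, 13 FF and 14 RES in all. Per the study's methods the sows were themselves selected, the RES sows for a high and the FF sows for a low body-weight loss in lactation, so the diet groups also differ by that selection. The study also reports that the largest healthy follicles had a smaller mean diameter in RES than in FF sows. The diet groups are therefore compared in follicles of different mean size.

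IGFBPs are secreted proteins that bind IGF1 and IGF2 and so set how much free ligand can reach the IGF1 receptor. In the ovarian follicle they are known as local regulators of gonadotropin-dependent growth: proteases such as PAPPA cut some of them, which releases the ligand, and stanniocalcins block that protease. IGFBP1 to IGFBP6 bind IGFs tightly, whereas IGFBP7, also called angiomodulin, binds them weakly and is also known as a product of blood vessel endothelium.

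The members share a cysteine-rich N-terminal domain, and the classical members also share a C-terminal thyroglobulin-type domain. The coding stretches behind these motifs are shown because the first is common to all 4 tested members and the second sets IGFBP7, the most abundant of them here, apart. They were read from the RefSeq gene models on Sscrofa11.1, the build the counts were made on, and are written 5′ to 3′ on the coding strand. Capitals mark the codons of the N-terminal motif cysteine, glycine, cysteine, cysteine, any 2 residues, cysteine, with 3 flanking codons on each side in lower case.
IGFBP2, chr15:118822382-118822420, plus strand: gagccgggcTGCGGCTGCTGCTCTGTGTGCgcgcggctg
IGFBP4, chr12:21979855-21979893, minus strand: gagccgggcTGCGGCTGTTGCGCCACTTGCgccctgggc
IGFBP5, chr15:118877605-118877643, minus strand: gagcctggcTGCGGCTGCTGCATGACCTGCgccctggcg
IGFBP7, chr8:56357585-56357623, minus strand: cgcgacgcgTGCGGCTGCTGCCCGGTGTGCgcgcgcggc

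The motif was present in the coding sequence of IGFBP1, IGFBP2, IGFBP3, IGFBP4, IGFBP5 and IGFBP7 and absent from that of IGFBP6. The C-terminal run cysteine, tryptophan, cysteine, valine was present in IGFBP1 to IGFBP6 and absent from IGFBP7. In the next 3 stretches capitals mark the codons of that run.
IGFBP2, chr15:118850485-118850514, plus strand: cgtggggagTGCTGGTGCGTGaaccccaac
IGFBP4, chr12:21966605-21966634, minus strand: cgcggcaagTGCTGGTGTGTGgaccggaag
IGFBP5, chr15:118862045-118862074, minus strand: cgtggcatcTGCTGGTGCGTGgacaagtac

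The codons for arginine, glycine and aspartate, a motif through which proteins can bind integrins, were found in IGFBP1 and IGFBP2 only among the 7 members. In IGFBP2 they are the capitals of the following stretch.
IGFBP2, chr15:118850539-118850565, plus strand: cccaccatcCGGGGGGACcccgagtgt

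The encoded proteins ranged from 236 residues (IGFBP6) to 316 residues (IGFBP2), with 16 to 21 cysteines each. Identity between aligned residues was 43.9% for IGFBP2 and IGFBP4, 45.6% for IGFBP4 and IGFBP5 and 35.2% for IGFBP2 and IGFBP5. IGFBP7 shared 34.3% with IGFBP2, 31.7% with IGFBP4 and 29.3% with IGFBP5.

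On chromosome 15 the genes IGFBP2 (118822092 to 118850985, plus strand, 4 exons) and IGFBP5 (118861816 to 118877787, minus strand, 4 exons) are neighbours that point towards each other, with 10830 bases between them. IGFBP4 lies on chromosome 12 (21966524 to 21980043, minus strand, 4 exons), IGFBP6 on chromosome 5 (18352884 to 18357225, plus strand), IGFBP1 on chromosome 18 (50018487 to 50022799, minus strand) and IGFBP7 on chromosome 8 (56283089 to 56357822, minus strand, 5 exons). The 3′ end of IGFBP7 overlaps that of POLR2B, an RNA polymerase II subunit gene on the plus strand, by 279 bases in the RefSeq gene spans. The counting command names no strand option, so strand was not used to assign reads in the overlap. Whether the Ensembl exons used for counting overlap there was not examined. POLR2B itself had a normalised count of 862 ± 74.8 in the 13 FF libraries and 845 ± 79.1 in the 14 RES libraries (mean ± SD), with a log2FC of -0.03 ± 0.06 (SE; edgeR adjusted p = 0.809).

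The libraries held 12299220 to 18120922 counted read pairs, and PCR copies had been removed by their molecular tags. Of the 14 granulosa markers listed, 12 had an identifier and all of these entered the test; FOXL2 and CYP19A1 were not analysed here. RES sow 7 stood apart from its group. Of the 3445 genes called without it, its level lay nearer the FF mean than the RES mean for 89.3%, against at most 71.4% for any other library left out in the same way. Among the 27 libraries it ranked 1 for the summed endothelial markers, 2 for the immune and for the pericyte and smooth muscle markers, and 3 for the theca and stroma markers, so the diet comparisons of the members and the counts of calls by gene list are given with and without it.

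The order of the members by level was steep. Per kilobase of coding length, IGFBP7 had a normalised count of 1826 ± 343 (SD, n = 13) in FF GCs, followed by IGFBP2 with 238 ± 88.5, IGFBP4 with 108 ± 38.2, IGFBP5 with 90.1 ± 34.2 and IGFBP6 with 6.41 ± 3.33. In RES GCs the order was IGFBP7 (1197 ± 800, n = 14), IGFBP5 (149 ± 119), IGFBP2 (121 ± 58.7), IGFBP4 (75.0 ± 33.3) and IGFBP6 (5.51 ± 3.42). IGFBP4 and IGFBP5 in FF, and IGFBP2, IGFBP4 and IGFBP5 in RES, lay within 1 SD of their neighbours in these orders. The reads were counted on Ensembl exons, whose lengths were not used here, so levels between genes are approximate.

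No read pair was counted for IGFBP1, the insulin-regulated member best known from liver and decidua, in any of the 27 libraries. A count of 0 allows up to 3 counts, or 0.166 CPM (scaled to the library total) in the deepest library and 0.00762 CPM over the 393592862 counts of all libraries, for counting error only. IGFBP6, which prefers IGF2, was near the detection limit, with 0 to 8 counts per library and 58 counts in each diet group. Its mean count of 4.30 was under the limit for the test, and its normalised count was 4.56 ± 2.37 in FF GCs against 3.91 ± 2.43 in RES GCs (mean ± SD). No diet difference in IGFBP6 was detected: in a fit with no count filter its log2FC was -0.20 ± 0.38 (SE; edgeR p = 0.599, adjusted p = 0.805).

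Of the 4 members tested, 1 was called lower and 0 higher in RES GCs (edgeR quasi-likelihood test, adjusted p under 0.05 over all 17467 identifiers). Over all identifiers 5.11% were called lower and 7.76% higher. When RES sow 7 was left out, 3 members were called lower and 0 higher, where the share over all identifiers was 9.17% lower and 10.6% higher. With 4 members these counts are a description of the members.

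IGFBP2, a binding protein long associated with follicles that are held back or regress, was the member called lower in RES. Its normalised count in FF ranged from 141 to 467 with a median of 209, and in RES from 46.4 to 203 with a median of 98.4. Each of the 14 RES values was under the FF median and 9 were under the lowest FF value, whereas 7 FF sows lay above the highest RES sow. IGFBP2 fell by 49.4% in RES, from 227 ± 84.2 (SD, n = 13) to 115 ± 55.8 (SD, n = 14), with a log2FC of -0.98 ± 0.22 (SE) and an edgeR adjusted p of 0.0052. With RES sow 7 left out the log2FC was -0.97 ± 0.23 (adjusted p = 0.00454), and FF sow 1, the highest of all libraries, moved it only to -0.84 (adjusted p = 0.0096) when left out.

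IGFBP7 was lower in most RES sows, with RES sow 7 far above every other library. Its normalised count ranged from 960 to 2015 in FF (median 1631) and from 369 to 3104 in RES (median 888). Of the 14 RES sows 13 lay below the FF median and 9 below the lowest FF sow, while the value of 3104 in RES sow 7 compares with 1415 in the next highest RES sow. The lowest FF sow was sow 10, and the next lowest FF value was 1212. The study lists its lowest RNA integrity under the number of FF sow 10, a row that may belong to another sow. The FF mean was 1550.1 ± 291 (SD, n = 13) against a RES mean of 1016 ± 679 (SD, n = 14), a log2FC of -0.61 ± 0.22 (SE) that was not called by edgeR (adjusted p = 0.0676). With RES sow 7 left out the RES mean was 855 ± 329 (n = 13), and IGFBP7 fell by 44.7%, with a log2FC of -0.85 ± 0.17 and an edgeR adjusted p of 0.000859. Besides the fits that left out 1 library, 5 of 11 other ways of fitting the counts called IGFBP7, among them DESeq2's Wald test (adjusted p = 0.0411), voom with sample quality weights (adjusted p = 0.000553) and edgeR with the read-quality group described below as a covariate (adjusted p = 0.0226). It was not called by edgeR with DESeq2 size factors, upper-quartile factors, filterByExpr or genes with a symbol only (adjusted p = 0.0688, 0.0619, 0.0589 and 0.0621), nor with no count filter (adjusted p = 0.126).

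IGFBP4, an inhibitory binding protein and the main substrate of the protease PAPPA in follicles, was less separated. Its normalised count ranged from 39.1 to 140 in FF (median 92.2) and from 28.6 to 126 in RES (median 60.9). The groups overlapped over most of their range, although 13 of 14 RES sows lay below the FF median, and the highest RES value was again that of RES sow 7. The means were 83.9 ± 29.8 (SD, n = 13) and 58.5 ± 26.01 (SD, n = 14), with a log2FC of -0.53 ± 0.21 (SE) and an edgeR adjusted p of 0.0979. Without RES sow 7 the log2FC was -0.66 ± 0.20, which was called by edgeR (adjusted p = 0.0205).

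IGFBP5, which binds IGFs and extracellular matrix, had the opposite sign and the widest spread. Its normalised count ranged from 22.6 to 116 in FF (median 71.5) and from 18.0 to 376 in RES (median 108). The lowest value of all 27 libraries was that of a RES sow, and 5 RES sows lay above the highest FF sow. The means were 73.6 ± 27.9 (SD, n = 13) and 122 ± 96.8 (SD, n = 14), and the log2FC of 0.73 ± 0.35 (SE) was not called by edgeR (adjusted p = 0.162). Without RES sow 14, the highest library, it was 0.48 ± 0.32 (adjusted p = 0.331), and without RES sow 7 it was 0.70 ± 0.36 (adjusted p = 0.176).

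**Figure D1:**
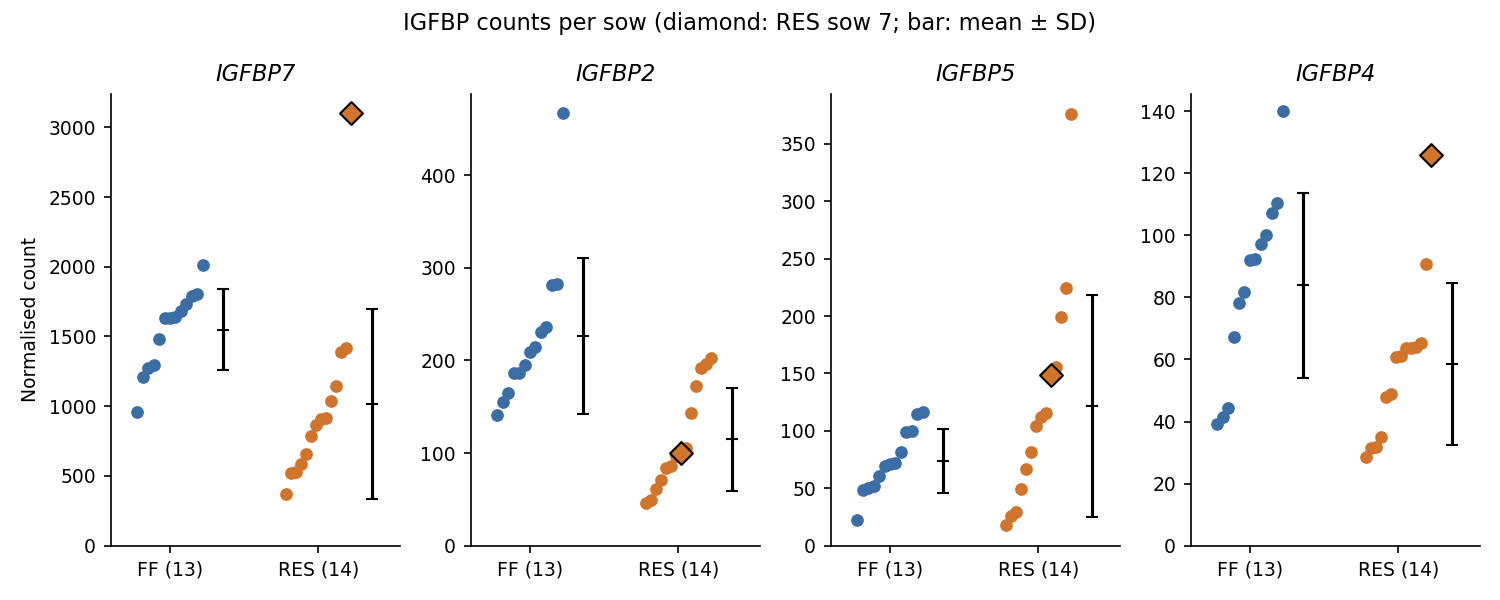
Normalised counts (vertical axis, linear, a separate scale per gene) of the 4 tested members in each FF and RES sow, sorted within diet, with the mean ± SD beside each group and RES sow 7 as a diamond. Every RES point lies under the FF median of 209 for IGFBP2, while RES sow 7 is the highest of all libraries for IGFBP7 at 3104.

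Relative to the mean, the spread between sows was wider in RES than in FF for each of the 4 tested members with all libraries, but not for IGFBP4 without RES sow 7. By SD it was wider in RES only for IGFBP5 and IGFBP7. The coefficient of variation of IGFBP5 was 37.9% in FF and 79.5% in RES, a span of 5.15-fold against 20.9-fold between the lowest and highest sow. For IGFBP7 it was 18.8% in FF and 66.8% in RES, or 38.4% in RES without sow 7. For IGFBP2 it was 37.1% and 48.6%, and for IGFBP4 35.5% and 44.5%, the latter being 33.9% without RES sow 7. Counting error alone would give 2.57% to 12.8% for these genes in either diet. The difference in spread was not tested.

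Because no sequencing batch is named, a split of the libraries by read quality was made, at the widest gap in the percentage of high-quality bases, listed in the study's read statistics, that left at least 5 libraries of each diet on both sides. A wider gap, not used for that reason, sets RES sows 3 and 5 apart below all others. The split placed 7 FF and 7 RES sows in an upper and 6 FF and 7 RES sows in a lower group. The IGFBP2 difference was of like size in both, with a log2FC of -1.03 ± 0.33 (edgeR adjusted p = 0.0479) in the upper and -0.96 ± 0.27 (adjusted p = 0.158) in the lower group. For IGFBP7 the log2FC was -1.34 ± 0.18 (adjusted p = 0.00815) in the upper group and -0.07 ± 0.26 (adjusted p = 0.941) in the lower group, which holds RES sow 7. Without that sow the lower group gave -0.40 ± 0.17 (adjusted p = 0.22). The difference between the 2 groups in the effect of diet on IGFBP7 was -1.29 on the log2 scale (edgeR interaction, p = 0.000819, adjusted p = 0.19) and -0.97 without RES sow 7 (p = 0.000943, adjusted p = 0.212).

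The diet comparisons of IGFBP4 and IGFBP5 were also made within these groups of libraries, and neither interaction passed after adjustment. For IGFBP4 the upper group gave a log2FC of -0.16 ± 0.26 and the lower group -0.84 ± 0.27 (edgeR adjusted p = 0.717 and 0.224), and -1.12 ± 0.22 (adjusted p = 0.0153) in the lower group without RES sow 7. For IGFBP5 they gave -0.06 ± 0.34 and 1.21 ± 0.48 (adjusted p = 0.92 and 0.315). The interaction p was 0.105 for IGFBP4 and 0.0445 for IGFBP5 before adjustment, and 0.549 and 0.451 after it. With RES sow 7 left out it was 0.0142 and 0.0474 before adjustment and 0.396 and 0.495 after it. FF sow 10 is in the lower group by a row of the read statistics that may belong to another sow, so these values depend on that label.

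**Figure D2:**
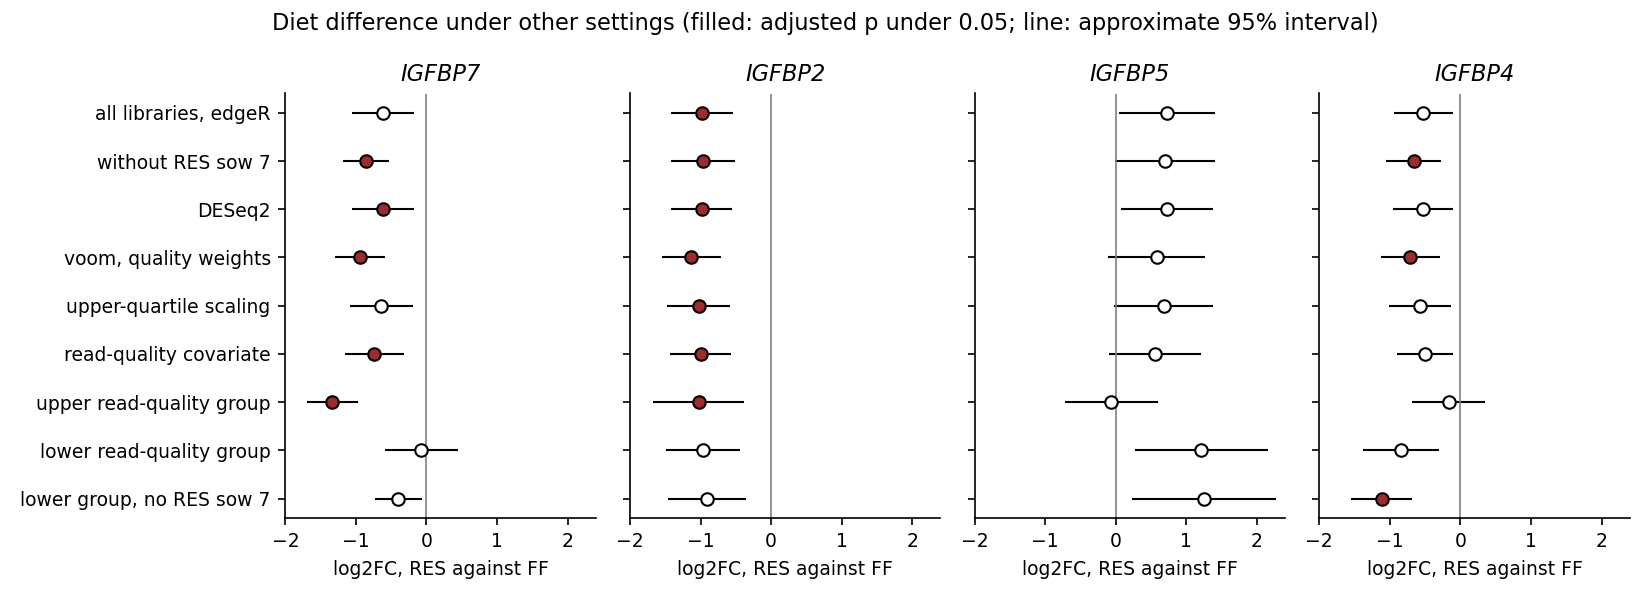
log2FC of RES against FF (horizontal axis; below 0 is lower in RES) for the 4 tested members under 9 settings, with lines of 1.96 SE and filled points where the adjusted p is under 0.05. IGFBP2 stays near -0.98 throughout, while IGFBP7 ranges from -1.34 in the upper to -0.07 in the lower read-quality group.

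The make-up of the family was next expressed as the share of each member in the summed normalised counts of the family. The total was 1939 ± 302 in FF (SD, n = 13), 1315 ± 743 in RES (SD, n = 14) and 1148 ± 420.1 (n = 13) in RES without sow 7. IGFBP7 was the largest share in all 27 libraries, with 79.7% ± 5.80 in FF (69.2% to 87.5%) and 75.6% ± 7.52 in RES (65.6% to 89.1%, the highest being RES sow 7). IGFBP2 accounted for 11.8% ± 3.71 in FF and 9.79% ± 4.85 in RES, and IGFBP4 for 4.41% ± 1.81 and 4.99% ± 1.92. IGFBP6 stayed under 1% in every library.

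IGFBP5 was the member whose mean share differed most, with 3.92% ± 1.79 in FF (1.25% to 7.26%) and 9.32% ± 5.86 in RES (1.67% to 22.2%). IGFBP2 was the second most abundant member in 13 of 13 FF libraries but in 6 of 14 RES libraries, where IGFBP5 took that place in the other 8. Per kilobase of coding length, IGFBP5 exceeded IGFBP2 in 0 of 13 FF and 9 of 14 RES libraries. By medians the share of IGFBP7 (81.5% in FF, 76.8% in RES) differed slightly more than that of IGFBP5 (3.41% and 7.96%). Leaving out RES sow 7 changed the mean shares in RES to 74.5% ± 6.69 for IGFBP7, 10.3% ± 4.60 for IGFBP2, 9.71% ± 5.91 for IGFBP5 and 5.10% ± 1.95 for IGFBP4. Shares were not tested, and a share can rise because another member falls.

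**Figure D3:**
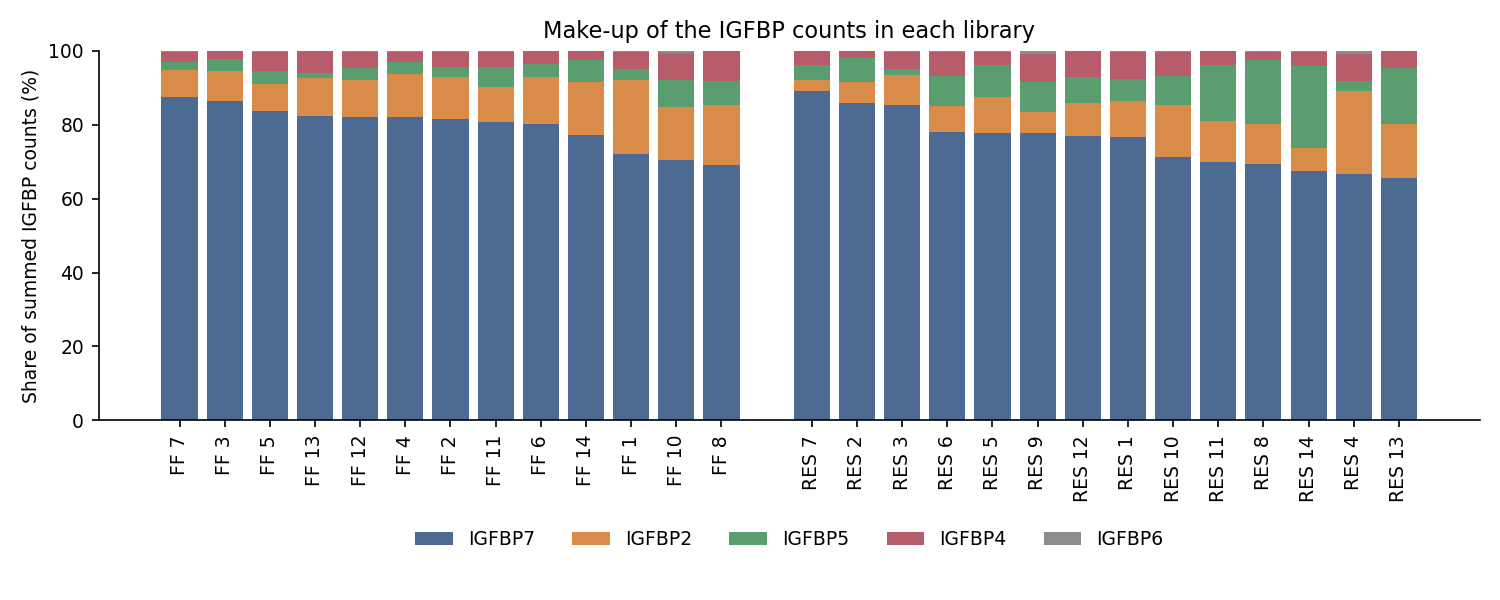
Share of each member (vertical axis, %) in the summed normalised IGFBP counts of each library, FF sows on the left and RES sows on the right, sorted by the share of IGFBP7. IGFBP5 takes 1.25% to 7.26% in FF and up to 22.2% in RES, and IGFBP7 is the largest share in all 27 libraries.

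Whether the members varied together between sows was asked within each diet, so that the diet difference itself makes no correlation. Over the 4 tested members this gave 6 pairs and 12 correlations, and none passed in either diet (Pearson's r on normalised counts, 100000 permutations, two-sided, adjusted over the 12). On residuals within the read-quality groups 1 of the 12 passed, IGFBP4 with IGFBP7 in RES (r = 0.82, permutation p = 0.0016, adjusted p = 0.0192). Before adjustment and without such residuals, 1 pair had a permutation p under 0.05 in RES and 0 in FF. That pair was IGFBP4 and IGFBP7 in RES. Pearson's r was 0.72 (permutation p = 0.018, adjusted p = 0.216), while Spearman's rho was 0.39 (permutation p = 0.165).

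The correlation of IGFBP4 with IGFBP7 over all RES sows dropped when RES sow 7 was left out, but it was high in the upper read-quality group, which does not hold that sow. Without RES sow 7 r was 0.20 (permutation p = 0.522), and without the 2 libraries farthest from the IGFBP4 median it was 0.08 (permutation p = 0.807). In the upper read-quality group it was 0.89 (exact permutation p = 0.00694, n = 7), and 0.86 in the lower (exact permutation p = 0.0804, n = 7) with RES sow 7 and -0.04 without it (exact permutation p = 0.857, n = 6). The residuals without RES sow 7 gave r = 0.50 (permutation p = 0.0853, adjusted p = 0.512). In FF GCs the same pair had r = -0.13 (permutation p = 0.68) and rho = -0.17. In FF its r was 0.65 in the upper read-quality group (exact permutation p = 0.137, n = 7) and -0.37 in the lower (exact permutation p = 0.465, n = 6). The residuals in FF gave r = 0.21 (permutation p = 0.484). The difference between the diets in r over all sows was not called (permutation p = 0.159, adjusted p = 0.476).

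IGFBP2 and IGFBP5, the neighbours on chromosome 15, had r = 0.22 in FF (permutation p = 0.484) and 0.27 in RES (permutation p = 0.371), with rho = 0.49 and 0.48 (permutation p = 0.0927 and 0.0843). IGFBP5 and IGFBP7 had r = -0.29 in FF and 0.30 in RES (permutation p = 0.333 and 0.249), and the difference between the diets had p = 0.106 (adjusted p = 0.476). For this pair r in RES was 0.49 without RES sow 7 (permutation p = 0.0905), with a p of 0.0557 for the difference (adjusted p = 0.334), and r in FF was -0.61 without the 2 libraries farthest from the IGFBP5 median (permutation p = 0.0445, adjusted p = 0.367). The other pairs had r from 0.03 to 0.39 in FF and from 0.11 to 0.27 in RES, where without RES sow 7 IGFBP2 had r = 0.49 with IGFBP4 and 0.39 with IGFBP7 (permutation p = 0.0916 and 0.184). None of the 6 pairs differed between the diets after adjustment (0 of 6), and 0 did so before adjustment on normalised counts. On the log2 scale, IGFBP5 and IGFBP7 had r = -0.24 in FF and 0.51 in RES, with a p of 0.0389 for the difference (permutation) and 0.234 after adjustment.

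**Figure D4:**
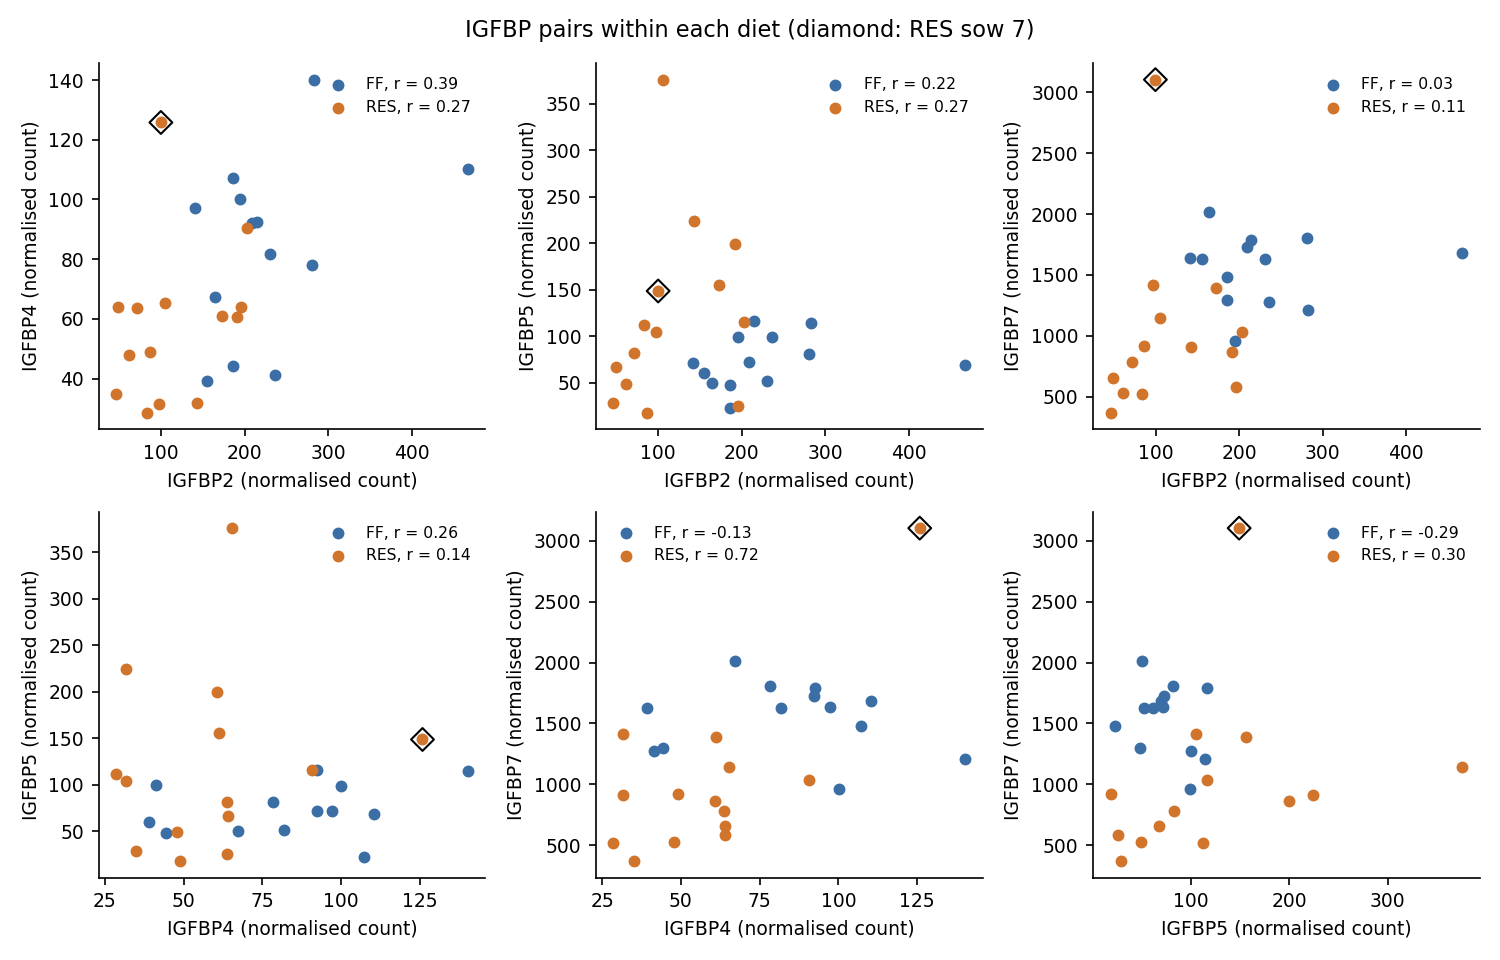
Normalised counts of each of the 6 pairs of tested members, 1 point per sow (FF blue, RES orange, RES sow 7 marked by a diamond), with Pearson's r per diet. In the panel of IGFBP4 and IGFBP7 the r in RES is 0.72, and 0.20 without the marked sow.

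The genes whose pattern between sows was most like that of each member were listed from 9522 genes with a symbol and a mean normalised count of at least 20, by Pearson's r of log2(normalised count + 1) over the 27 libraries after subtraction of the diet mean. For IGFBP7 they were FYN (r = 0.89), RAPGEF2 (0.87), ADAMTSL1 (0.83), HAO2 (0.83) and MYCT1 (0.82). For IGFBP2 they were PLEKHO1 (0.77), THNSL2 (0.76), SLC44A2 (0.75), SELENBP1 (0.73) and PSAP (0.73). The closest to IGFBP4 were PDE10A (0.77), PIEZO2 (0.73), GNG7 (0.72), ADGRA2 (0.72) and PTPRM (0.72). IGFBP5 was closest to P2RX7 (0.76), DTX4 (0.73), TM4SF1 (0.71), ATP8B1 (0.71) and MMRN2 (0.68), genes whose own log2FC in RES was below 0 in all 5 cases while that of IGFBP5 was above 0. No member was among the 5 genes closest to another member.

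The ligands and receptors that the family acts on were examined next. Of 6 listed genes, 5 had an identifier, 4 were tested and 0 were called in either direction, with a median log2FC of -0.15 beside -0.02 over all 17467 identifiers, of which 12.9% were called. IGF1 had a normalised count of 1035 ± 440.1 in FF against 853 ± 280.5 in RES (mean ± SD) (log2FC -0.27 ± 0.21, edgeR adjusted p = 0.4), and IGF1R one of 1494 ± 253 and 1335 ± 397 (-0.16 ± 0.13, adjusted p = 0.437). INSR, the insulin receptor, gave -0.14 ± 0.12 (adjusted p = 0.434) and IGF2R, the receptor that clears IGF2, gave -0.11 ± 0.10 (adjusted p = 0.478). With RES sow 7 left out, 0 of the 4 were called in either direction, with a median log2FC of -0.20 beside -0.03 over all identifiers. IGF2 was not analysed here.

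Of 19 listed genes for proteins that carry or cut IGFBPs, or that block the cutting, 14 were tested, 1 was called lower and 0 higher, beside 5.11% lower and 7.76% higher of all identifiers, with a median log2FC of 0.03. The called gene was MMP2, a gelatinase, whose normalised count fell from 221 ± 75.3 (SD, n = 13) to 116 ± 88.5 (SD, n = 14), a log2FC of -0.92 ± 0.29 (edgeR adjusted p = 0.0367). PAPPA had a normalised count of 1186 ± 702 in FF and 1675 ± 757 in RES (log2FC 0.50 ± 0.34, adjusted p = 0.354). STC1, an inhibitor of PAPPA, had 876 ± 437 and 615 ± 305 (-0.51 ± 0.27, adjusted p = 0.215), and STC2 was low, at 5.30 ± 3.82 and 4.66 ± 4.35. IGFALS, the circulating partner of IGFBP3 complexes, was under 3 normalised counts in every library. Without RES sow 7, CTSL and ADAM9 were also called lower, so that 3 of the 14 were called lower, where 9.17% of all identifiers were.

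Among 21 listed genes that act downstream of the receptors, namely adaptors, kinases and FOXO transcription factors, 17 were tested, 2 were called lower and 1 higher, beside 5.11% lower and 7.76% higher of all identifiers, with a median log2FC of -0.09. PIK3R1, the regulatory subunit of PI 3-kinase, fell with a log2FC of -0.64 ± 0.18 (edgeR adjusted p = 0.0229), and IRS1, the substrate that couples the receptors to it, fell with -0.45 ± 0.14 (adjusted p = 0.038). GRB2, an adaptor to the Ras pathway, rose with 0.36 ± 0.12 (adjusted p = 0.0469). Without RES sow 7 these 3 genes were called again, and PIK3R3 and FOXO3 were called lower as well, 4 lower and 1 higher of 17 beside 9.17% lower and 10.6% higher of all identifiers. AKT1 was not analysed here.

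Of 13 listed genes outside the family whose proteins, secreted or membrane-bound, have an IGFBP-like domain, 8 were tested, and 1 was called lower and 0 higher, again beside 5.11% and 7.76% of all identifiers, with a median log2FC of -0.02. It was CCN3, a matricellular protein, with a normalised count of 83.3 ± 92.2 in FF against 23.2 ± 30.5 in RES (mean ± SD) (log2FC -1.86 ± 0.61, edgeR adjusted p = 0.0443). With RES sow 7 left out, CCN3 and ESM1 were called lower, 2 of the 8, beside 9.17% of all identifiers.

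Some markers of other cell types also differed between the diets, and their part in the results was not tested. In bulk RNA, fewer cells of a type and less RNA per cell cannot be told apart. The counts of each list stand beside 5.11% lower and 7.76% higher of all identifiers with all libraries, 9.17% and 10.6% without RES sow 7, and 52.9% with a log2FC below 0 in the fit of all libraries. Endothelial markers had 11 of 12 tested genes with a log2FC below 0 and 4 called lower (EMCN, ROBO4 and CDH5 among them), or 8 of 12 called lower without RES sow 7. Their summed normalised count ranged from 1596 to 2919 in FF and from 1150.4 to 3283 in RES. Of the theca markers, 8 of 9 were below 0 and CYP11A1 was called lower, or 3 of 9 without RES sow 7 (CYP11A1, STAR and CYP17A1), with a sum of 9719 to 41130 in FF and 3230 to 35264 in RES. Pericyte and smooth muscle markers had 1 of 10 called lower (RGS5), stroma 0 of 11, immune 0 of 5, erythroid 1 of 2 (HBB) and oocyte 0 of 2. When RES sow 7 was left out these counts were 3 of 10 (MYH11, RGS5 and PDGFRB), 0 of 11, 2 of 5 (AIF1 and CD163), 1 of 2 and 0 of 2. None of the markers that had an identifier was at 0 in all libraries, and the granulosa list itself had 0 of 12 called lower and 1 called higher, HSD17B1, or 0 and 2 (INHBB and HSD17B1) without RES sow 7.

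After these values were seen, r of the 4 tested members with the 8 cell type sums was computed in each diet, 64 correlations in all. IGFBP7 followed the theca sum in RES. Pearson's r was 0.91 (permutation p = 6e-05, adjusted p = 0.00384), while Spearman's rho was 0.88 (permutation p = 7e-05). Leaving out RES sow 7 gave r = 0.82 (permutation p = 0.00058, adjusted p = 0.0186), and without the 2 sows farthest from the median theca sum it was 0.81 (permutation p = 0.00166). In the upper read-quality group it was 0.87 (exact permutation p = 0.0167, n = 7). In the lower group it was 0.92 with RES sow 7 (exact permutation p = 0.0252, n = 7) and 0.41 without it (exact permutation p = 0.4, n = 6). In FF it was 0.58 (permutation p = 0.039, adjusted p = 0.192), with rho = 0.67 (permutation p = 0.0163). The difference between the diets was not tested. With the granulosa sum, r of IGFBP7 in FF was 0.63 (permutation p = 0.0222, adjusted p = 0.142), with rho = 0.46 (permutation p = 0.12). Without the 2 FF sows farthest from the median granulosa sum r was 0.23 (permutation p = 0.492). Over all 14 RES sows the granulosa sum gave r = 0.11 (permutation p = 0.681).

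The theca sum was mostly 1 gene. LHCGR, the luteinizing hormone receptor, which mural GCs of large follicles also make, held 71.2% of the theca counts over the 27 libraries. With LHCGR alone, chosen after its values were seen, IGFBP7 had r = 0.69 in FF, 0.82 in RES and 0.83 in RES without sow 7. With CYP17A1, the androgen-making enzyme of theca cells, r was 0.24 in FF, 0.89 in RES and 0.34 in RES without sow 7. With the 7 theca genes left after removal of LHCGR, STAR and CYP11A1, genes that GCs can also make, it was 0.06 in FF, 0.81 in RES and 0.35 in RES without sow 7. These are descriptions with no test.

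**Figure D5:**
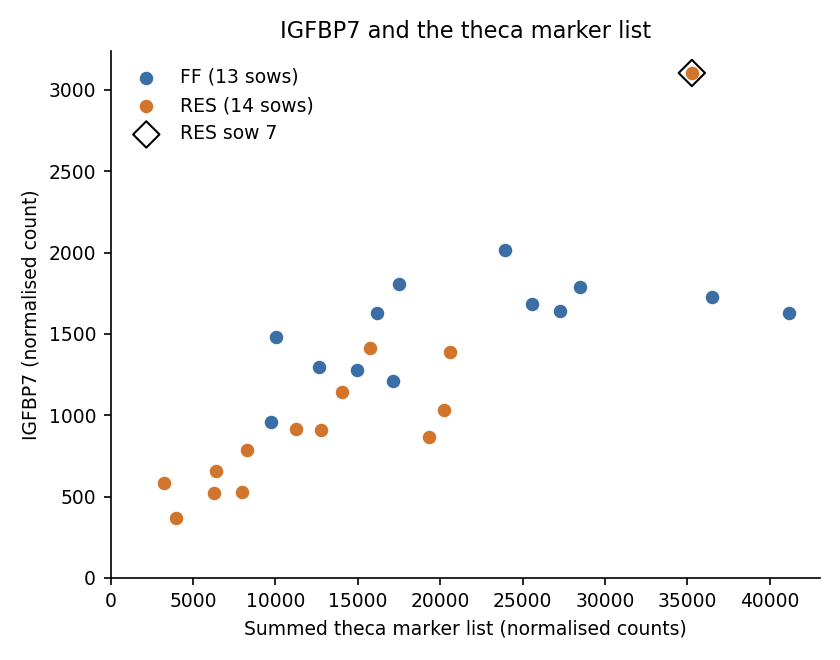
IGFBP7 (vertical axis, normalised count) against the summed normalised counts of the theca marker list (horizontal axis), 1 point per sow (FF blue, RES orange, RES sow 7 marked by a diamond). Pearson's r is 0.58 in FF, 0.91 in RES and 0.82 in RES without the marked sow.

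IGFBP7 was also correlated with the stroma, endothelial and immune sums in RES, at r = 0.73, 0.89 and 0.89 (permutation p = 0.00068, 0.00225 and 0.00286; adjusted p = 0.0218, 0.0458 and 0.0458), with rho = 0.70, 0.67 and 0.53 (permutation p = 0.00664, 0.0117 and 0.0542). Leaving out RES sow 7 gave 0.63, 0.55 and 0.48 (permutation p = 0.0216, 0.0494 and 0.0957; adjusted p = 0.284, 0.316 and 0.429), so none of the 3 passed without that sow. Without the 2 sows farthest from the median of each sum they were 0.59, 0.55 and 0.29 (permutation p = 0.0464, 0.067 and 0.364). In the upper read-quality group they were 0.62, 0.81 and 0.30 (exact permutation p = 0.139, 0.0185 and 0.518, n = 7) and in the lower group 0.75, 0.84 and 0.98 (exact permutation p = 0.0462, 0.0835 and 0.00714, n = 7), or 0.53, -0.21 and 0.80 without RES sow 7 (exact permutation p = 0.274, 0.787 and 0.0833, n = 6). In FF GCs the corresponding r was -0.36, 0.31 and 0.10 (permutation p = 0.229, 0.297 and 0.739). For IGFBP2, IGFBP4 and IGFBP5, 0 correlations with a cell type sum passed adjustment in either diet with all libraries, and those with an unadjusted p under 0.05 were 5 for IGFBP4 and 1 for IGFBP5, all in RES. The 5 of IGFBP4 had r of 0.56 to 0.78, and 0.27 to 0.36 without RES sow 7.

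IGFBP2, with r of 0.34 with the theca sum and 0.15 with the granulosa sum over all RES sows (permutation p = 0.231 and 0.614), depended on which sows were kept. Its r with the theca sum was 0.59 without RES sow 7 (permutation p = 0.0355, adjusted p = 0.304) and 0.92 without the 2 sows farthest from the median of that sum (permutation p = 5e-05, not adjusted). Described with no test, r of IGFBP2 with LHCGR alone was 0.45 in RES and 0.60 without RES sow 7. With the 7 theca genes left after removal of LHCGR, STAR and CYP11A1, IGFBP2 had r = -0.04 and 0.04. Its r with the granulosa sum was 0.14 without RES sow 7 (permutation p = 0.644) and 0.79 without the 2 sows farthest from the median of that sum (permutation p = 0.00218, not adjusted). For the theca sum the upper read-quality group gave 0.48 (exact permutation p = 0.26, n = 7) and the lower group 0.04 with RES sow 7 (exact permutation p = 0.958, n = 7) and 0.79 without it (exact permutation p = 0.0847, n = 6). In FF the r of IGFBP2 was 0.11 with the theca and -0.36 with the granulosa sum (permutation p = 0.726 and 0.23). For the granulosa sum in FF, rho was -0.66 (permutation p = 0.0166, not adjusted). There r was -0.94 in the upper read-quality group (exact permutation p = 0.000397, n = 7) and -0.08 in the lower (exact permutation p = 0.868, n = 6). Without the 2 FF sows farthest from the median of that sum r was -0.49 (permutation p = 0.113).

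IGFBP5 and the endothelial sum were the other pair that passed once RES sow 7 was left out. Over all 14 RES sows r was 0.53 (permutation p = 0.0698, adjusted p = 0.296), while rho was 0.77 (permutation p = 0.00165). The 13 other RES sows gave r = 0.90 (permutation p = 0.00018; 0.0115 when adjusted over the 64). Their rho was 0.78 (permutation p = 0.00271). When the 2 of all 14 sows farthest from the median endothelial sum were left out, r was 0.76 (permutation p = 0.00456). It was 0.81 in the upper read-quality group (exact permutation p = 0.0371, n = 7), 0.28 in the lower group with RES sow 7 (exact permutation p = 0.451, n = 7), 0.91 in that group without it (exact permutation p = 0.0125, n = 6) and 0.38 in FF (permutation p = 0.201).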

How the data were processed

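The authors' deposited values are whole-number counts of read pairs per Ensembl gene, not normalized. Per the file headers, the methods and the submitters' processing notes, the authors cleaned the reads with SOAPnuke, aligned them with HISAT2 2.2.1 to Sscrofa11.1, kept uniquely mapped reads (SAMtools 1.16.1), removed PCR copies with UMI-tools 1.1.4 and counted exons with featureCounts 1.6.2 on Ensembl 110, with no strand option. Identifiers averaging 5 or more counts across the 27 libraries were tested with edgeR 4.0.16 (TMM, quasi-likelihood, R 4.3.3) and Benjamini-Hochberg adjustment. Normalised counts are counts divided by DESeq2 1.42.0 size factors. Correlations used 100000 permutations, or all within read-quality groups (scipy 1.17.1, numpy 2.4.6), so 1e-05 is the smallest p they can give. Sequences, positions and coding lengths come from RefSeq (pyfaidx 0.9.0.4, Biopython 1.88), with a global BLOSUM62 alignment.

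The members and gene lists were chosen with earlier results of these data known. From each list, called genes with a mean of at least 20 normalised counts were named, at most 4 per list and by the size of the log2FC; IGF ligands, receptors, PAPPA, IGFALS and stanniocalcins were named whatever their values, and the 5 genes most like each member. POLR2B, single theca genes and genes called only without RES sow 7 were picked after their values were seen. Alternatives were DESeq2's Wald test and size factors, upper-quartile factors, filterByExpr, no count filter, genes with a symbol only, limma 3.58.1 voom with sample quality weights, a replicate block, the read-quality group as a covariate or within groups, and leaving out each library. The fits were tested on simulated data.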

Additional observations from a re-analysis of the deposited data

How the results depend on the processing

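The IGFBP2 difference kept its sign in every setting and its call in all 27 fits that left out 1 library and in 10 of 11 other planned settings. It was lost within the lower read-quality group, with or without RES sow 7 (adjusted p = 0.158 and 0.0996). Over the fits that left out 1 library, the number of members called lower was 1 to 3, the number called higher 0 to 0, and the number of genes called 1578 to 3445, the highest without RES sow 7. Members called lower numbered 2 with DESeq2, with the read-quality covariate and within the upper read-quality group, 3 with voom quality weights and 0 within the lower group. Chosen after seeing the data, the covariate without RES sow 7 gave 3 members and 3427 genes, and the lower group without RES sow 7 gave 450 genes. Genes called numbered 2248 in all, 4187 with voom and 0 in the lower group, where 2158 had an unadjusted p under 0.05. The causes were not tested. IGFBP5 was -0.062 on the log2 scale in the upper group against 0.73 in all libraries. Of the correlated pairs, 1 (IGFBP4 and IGFBP7, adjusted p = 0.0192) passed in RES on residuals within read-quality groups, against 0 in the other settings, residuals without RES sow 7 included. Upper-quartile factors moved the share of higher calls from 60.3% to 47.6% and the median log2FC from -0.02 to -0.08, and no member changed sign or call under them.

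Sow numbers did not pair the libraries: deviations of same-numbered sows correlated at -0.16 to 0.24, and 1 of 13 numbers exceeded 0.1. With the number as a replicate block, 1537 genes and 2 members were called, the members being IGFBP2 (log2FC -0.97, adjusted p = 0.0263) and IGFBP7 (-0.76, adjusted p = 0.0298). With no count filter IGFBP6, at 0 to 8 counts per library, gave a log2FC of -0.20 (edgeR adjusted p = 0.805), and counts as low as 22 for IGFBP5 and 29 for IGFBP4 limit the precision of those members.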
